A study of Mus musculus with 6 samples.

Results

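Hox genes were examined in cultured mouse renal tubular epithelial cells (RTECs), as the protein-coding genes whose symbol is Hoxa, Hoxb, Hoxc or Hoxd followed by a paralog number. 39 of the 46517 genes in the count tables met this rule, and 32 of the 39 had enough reads to be tested. RNA was sequenced from 3 control (CTL) cultures and 3 cultures given TGF-β1, a cytokine used to induce a profibrotic response, at 50 ng/ml for 24 h. All 6 cultures came from kidneys of wild-type FvB mice. The labels give an age of 4 to 6 weeks, and the methods of the study give a slightly younger range. The cells were freed with collagenase, filtered and grown in RPMI medium with serum, EGF and insulin-transferrin-selenium without sorting, then kept serum-free for 24 h before treatment. No source used here says whether the 6 cultures came from separate animals, so p-values measure only the spread between these samples, which may be technical.

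Hox genes encode homeodomain transcription factors that set position along the body axis. They lie in 4 clusters, HoxA to HoxD, and genes with the same number in different clusters are paralogs with related sequence. In GRCm38, HoxA lies on chromosome 6, its tail end at 52260880 (Hoxa13), and HoxB on chromosome 11 from 96194316 (Hoxb13) to 96368256 (Hoxb1). HoxC lies on chromosome 15 from 102921103 (Hoxc13) to 103036852 (Hoxc4) and HoxD on chromosome 2 from 74668310 (Hoxd13) to 74765142 (Hoxd1). Within a cluster the low numbers act towards the head and the high numbers towards the tail, and many Hox proteins bind DNA together with TALE homeodomain partners of the Pbx and Meis families. In the kidney the paralog 11 genes act with Eya1 and Pax2 in the early metanephros, and a Hoxb7 promoter fragment is widely used to drive transgenes in the ureteric bud and collecting duct.

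Between 28313080 and 34183497 reads fell on genes per library, so the floor used here, 3 counts, stood for 0.0878 to 0.106 CPM (counts scaled to the library total). It covers counting error only. The cultures carried epithelial genes, with Epcam at 51.3 to 295 CPM and Cdh1 at 72.0 to 348 CPM. Of 7 proximal tubule markers 4 had enough reads to be tested. Lrp2 was at 27.7 to 75.8 CPM, Aqp1 at 0.942 to 16.2 CPM and Cubn at 4.15 to 5.08 CPM, while the transporters Slc34a1 and Slc5a2 had at most 10 and 3 counts. The 2 cultures that carry the replicate number 2 stood apart. Markers of fibroblasts and pericytes summed to 2211 to 2317 CPM in them and to 758 to 1015 CPM in the other 4. Most of this was collagen, with Col1a1 at 1496 and 1760 CPM and Col3a1 at 419 and 427 CPM in replicate 2. Of the 7 tested markers 5 were higher there, while Pdgfra and Thy1 were lower. The summed epithelial markers were at 406 to 558 CPM in the replicate 2 cultures against 901 to 1480. The methods of the study name male mice, yet 4 Y-linked genes summed to 136 to 154 CPM in the replicate 2 cultures and to at most 0.177 CPM in the other 4.

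The tubule cultures expressed Hox genes of all 4 clusters, with HoxB highest. Reads on Hox genes came to 33468 to 42731 per library, or 1182 to 1338 CPM. Levels between genes are compared per length, as CPM per kb of exon, averaged over the 6 cultures. HoxB held 59.8% ± 4.38 of this summed level (SD, n = 6), HoxA 16.7% ± 2.55, HoxC 11.9% ± 3.62 and HoxD 11.7% ± 1.17. 30 of the 39 members were above 1 CPM per kb and 14 were above 10 CPM per kb.

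Hoxb9, a thoracic patterning gene, was the most abundant member at 134 ± 13.3 CPM per kb of exon (mean ± SD, n = 6). Its lowest culture, at 120, was above the highest culture of every other member. The next 3 were also in HoxB. Hoxb6 was at 45.7 ± 5.42, Hoxb7 at 44.2 ± 7.08 and Hoxb8 at 43.3 ± 5.24 CPM per kb. Their order cannot be told, as these means differ by less than the spread of each gene over the cultures. Hoxc10 and Hoxa10, lumbar paralogs, followed at 29.2 ± 8.20 and 28.0 ± 3.79 CPM per kb and overlapped in range. Hoxd10 was at 20.0 ± 2.01, Hoxd8 at 19.0 ± 2.98 and Hoxd9 at 16.5 ± 1.40. Hoxa5, the last of the 10 highest, was at 14.5 ± 4.38 CPM per kb, with the CTL and TGF-β1 cultures apart. Hoxa7 followed at 13.7 ± 2.97, within that spread, and over unshared exon bases it was above Hoxa5, at 17.2 against 14.5, so their order depends on the overlap of exons described further on.

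The high members lay in the middle of each cluster, and both ends were low. In HoxB the level rose from 5.06 ± 0.647 CPM per kb for Hoxb2 to 12.5 ± 1.14 for Hoxb4 and 134 for Hoxb9. Hoxb1, a hindbrain gene, had at most 1 read in any culture, and Hoxb13, a prostate and tail gene, at most 2. In HoxA, Hoxa2, Hoxa3 and Hoxa4 were between 1.23 and 2.43 CPM per kb on average, paralogs 5 to 10 between 8.05 and 28.0, and Hoxa11 was at 3.83 ± 0.844. In HoxC, Hoxc4 and Hoxc5 were at 2.16 ± 0.492 and 1.36 ± 0.556, and Hoxc11 at 1.38 ± 0.274. In HoxD, Hoxd3 was at 0.177 ± 0.0602, Hoxd4 at 1.42 ± 0.419 and Hoxd11 at 1.72 ± 0.398. The paralog 11 genes were therefore present from 3 clusters, each well under the paralog 10 gene of its cluster.

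The 7 members that were not tested were Hoxa13, Hoxb1, Hoxb13, Hoxc12, Hoxd1, Hoxd12 and Hoxd13, with 0 to 10 reads per culture. Hoxd12 had no read in any culture, which allows a level of up to 0.0878 to 0.106 CPM. Hoxc13, a hair follicle gene, was the only tested member of paralogs 12 and 13, with 6 to 18 reads per culture. Several levels are uncertain because exons overlap another gene, and reads on 2 genes were left out by the counting. Whether the counting used strand is not given in the sources used here. 16 members share exon bases with another gene. Hoxb3, a hindbrain gene that shares 52.9% of its exon bases with the antisense Hoxb3os, was at 6.26 ± 0.939 CPM per kb over all exon bases and averaged 13.3 over the unshared ones. Hoxd4 was at 1.42 and 2.98 on these scales, and Hoxd3 at 0.177 and 0.478.

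**Figure D1:**
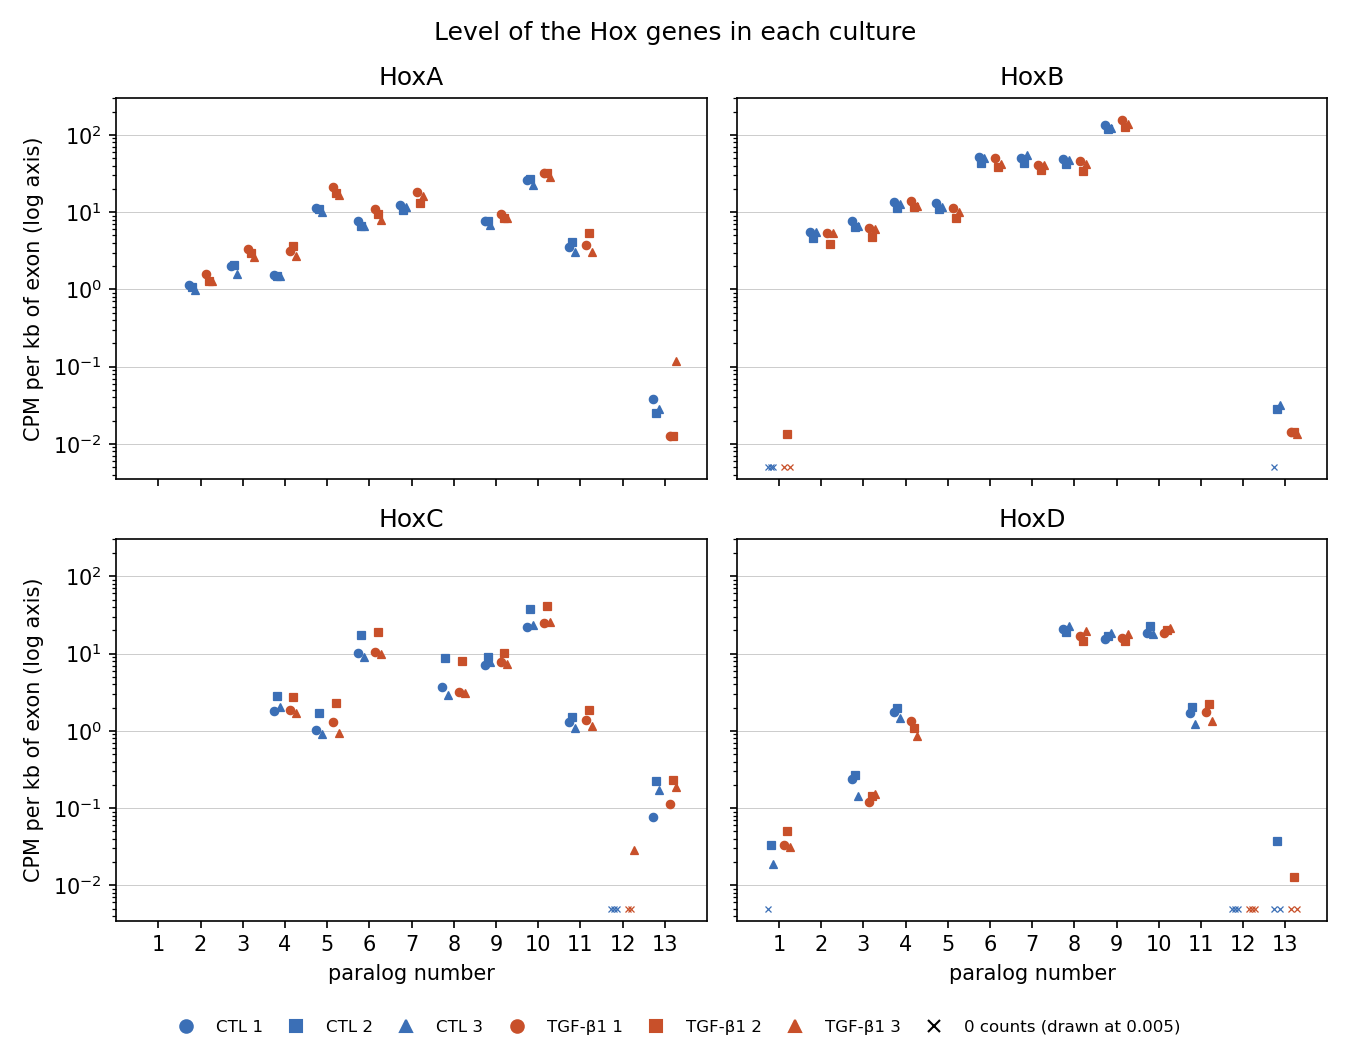
Level of the Hox genes, in CPM per kb of exon on a log axis, against paralog number, with 1 panel per cluster. Blue marks the 3 CTL and orange the 3 TGF-β1 cultures, the marker shape gives the replicate number, and crosses at the bottom are cultures with 0 counts. Hoxb9 is highest at 120 or more in every culture, and the ends of the clusters fall towards 0.

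The main comparison asked which Hox genes differ between TGF-β1 and CTL cultures. 6 members rose, all of them in HoxA: Hoxa3, Hoxa4, Hoxa5, Hoxa7, Hoxa9 and Hoxa10, by 1.26-fold to 2.20-fold. That is 6 of 32 tested members and 6 of the 10 tested in HoxA, where 5.00% of the 15862 genes tested were called higher and 6.69% lower (edgeR quasi-likelihood test, adjusted p threshold 0.05). No member was called lower. 11 members in either direction had an unadjusted p under 0.05, as did 4529 of all 15862 genes tested. DESeq2 called 7 higher, the same 6 and Hoxa6, and 0 lower, where it called 17.2% of all genes in either direction. Calls depended on single libraries, among Hox members and among all genes. The count of 6 became 1 when the CTL or the TGF-β1 culture numbered 1 was left out. Of all genes tested, 1.83% and 1.98% were then called in either direction, against 11.7% in the main fit. The count became 2 when CTL replicate 3 was left out (7.81% of all genes) and 3 when TGF-β1 replicate 2 was left out (7.46%). It was 3 (Hoxa3, Hoxa4 and Hoxa5) when libraries were scaled by their size alone (12.4%). Without both replicate 1 cultures it was 0, as for all genes tested, with 7 Hox members and 1938 of all 15961 genes at an unadjusted p under 0.05.

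The replicate numbers were taken to pair the cultures, from correlations in these same data, as no source used here states a pairing. With the number as a block 11 members were called higher and 5 lower. Here 15.1% of all genes tested were called higher and 19.1% lower. The 11 were the 6 above with Hoxa2, Hoxa6, Hoxb9, Hoxc6 and Hoxc10. The 5 that fell were Hoxb3, Hoxb5, Hoxb7, Hoxd4 and Hoxd8. With the block, 6 were higher and 2 lower when both replicate 1 cultures were left out, and 9 and 3 when both replicate 2 cultures were. Of all genes tested, 16.8% and 31.4% were then called in either direction, against 34.2% with all cultures. 8 of the 10 tested HoxA members were thus higher with the block, against 1 of 8 in HoxB, 2 of 8 in HoxC and none of 6 in HoxD. The median log2 fold change without the block was 0.49 in HoxA, -0.09 in HoxB, 0.20 in HoxC and -0.11 in HoxD, while over all genes tested it was 0.

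In 9 members the 3 TGF-β1 cultures were all above the 3 CTL cultures, and 8 of these were HoxA genes. In 3 members, Hoxb3, Hoxb7 and Hoxd4, they were all below. Of all genes tested, 17.2% were higher and 18.0% lower in this sense.

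**Figure D2:**
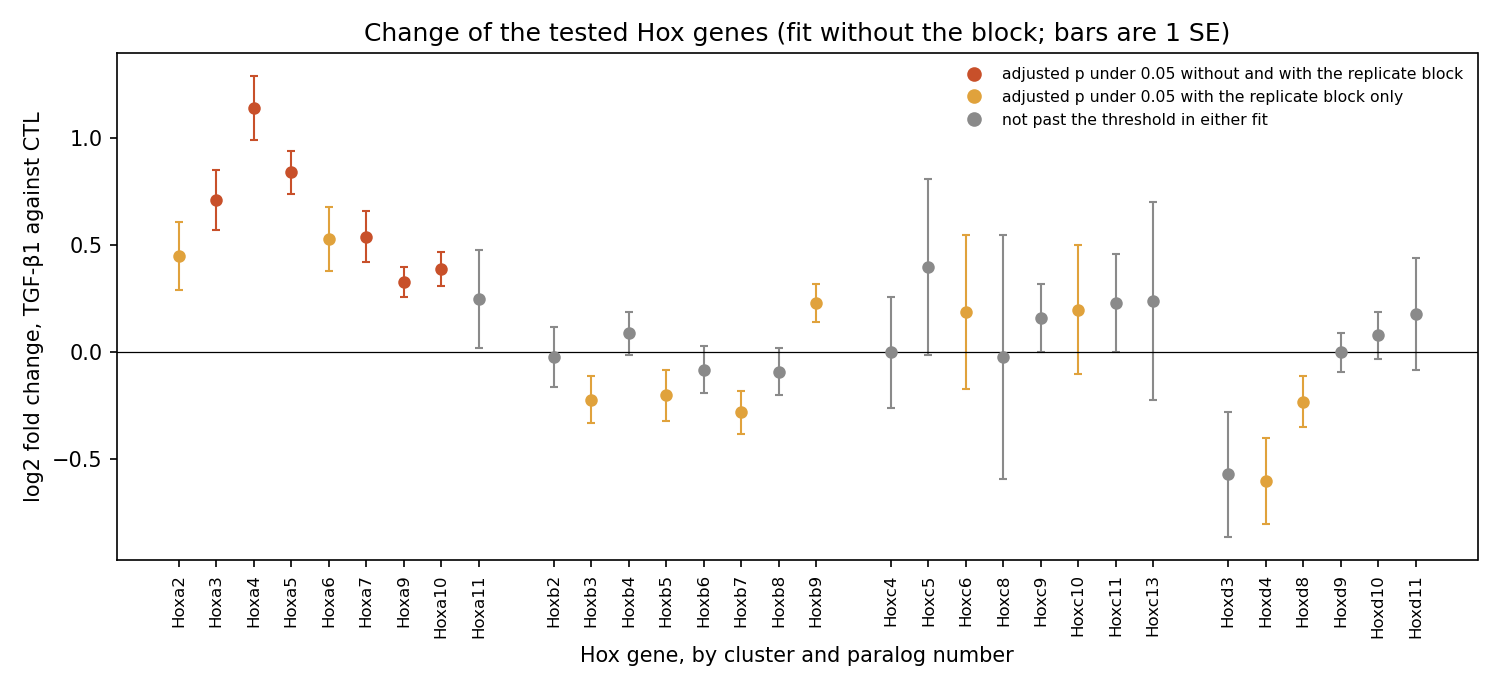
Log2 fold change of the tested Hox genes, TGF-β1 against CTL, with bars of 1 SE, ordered by cluster and paralog number. Red marks members past an adjusted p of 0.05 in both fits, yellow those past it with the replicate block alone and grey the rest. The HoxA members from Hoxa2 to Hoxa10 lie between 0.33 and 1.14, and HoxB lies between -0.28 and 0.23.

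Per culture, values are given as CPM normalized by TMM, edgeR's scaling between libraries, in the order of replicates 1, 2 and 3. Hoxa4, a patterning gene of the cervical vertebrae, was at 2.38, 2.34 and 2.34 in CTL and at 5.19, 5.98 and 4.36 in TGF-β1 cultures. It had the largest fold change of the members, a log2 fold change of 1.14 ± 0.15 (SE, n = 3 per group, edgeR adjusted p = 0.0105), with all 3 treated cultures far above a tight control group. It is a low gene of 68 to 183 reads, and 16.0% of its exon bases are shared with another annotated transcript.

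Hoxa5, which patterns the lung and the cervicothoracic spine, was at 20.5, 19.9 and 18.6 CPM in CTL and at 40.1, 34.1 and 31.3 CPM in TGF-β1 cultures. All treated cultures were far above the controls, and the log2 fold change was 0.84 ± 0.10 (SE, n = 3 per group, adjusted p = 0.00843). Hoxa5 shares no exon bases with another gene. It was the only member of the 6 to pass the threshold in all 6 fits that left out 1 culture, with log2 fold changes of 0.74 to 0.91. In these fits Hoxa4 passed in 4 of 6, Hoxa3 and Hoxa10 in 2, Hoxa7 in 1 and Hoxa9 in 0.

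Hoxa3, a gene of thymus and parathyroid development, was at 11.7, 12.3 and 9.39 CPM in CTL and at 20.5, 18.3 and 16.0 CPM in TGF-β1 cultures. The groups did not overlap (log2 fold change 0.71 ± 0.14, adjusted p = 0.0267). Its annotated span reaches across Hoxa4, Hoxa5 and Hoxa6, and 27.1% of its exon bases are shared, among others with the non-coding Hoxaas2 and Hoxaas3.

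Hoxa7 was at 34.2, 29.9 and 33.0 CPM in CTL and at 54.3, 39.3 and 47.1 CPM in TGF-β1 cultures (log2 fold change 0.54 ± 0.12, adjusted p = 0.0433). It shares 20.4% of its exon bases with Hoxaas3. The smallest rise of a same-numbered pair was in replicate 2, by 0.40 on the log2 scale, and the largest in replicate 1, by 0.67.

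Hoxa9, known as a partner of Meis1 in myeloid leukaemia, was at 41.1, 41.4 and 37.3 CPM in CTL and at 53.9, 48.3 and 48.1 CPM in TGF-β1 cultures. The change was small, 1.26-fold, and the groups did not overlap (log2 fold change 0.33 ± 0.07, adjusted p = 0.0361). The call was lost whenever a single culture was left out (edgeR adjusted p = 0.0565 to 0.126). Hoxa10, best known for its role in the uterus, was the most abundant HoxA gene and was at 81.6, 85.7 and 71.8 CPM in CTL and at 109, 108 and 95.7 CPM in TGF-β1 cultures. Again the groups were apart (log2 fold change 0.39 ± 0.08, adjusted p = 0.0375), and the 3 pair differences lay between 0.34 and 0.42.

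Another 2 HoxA members were higher in every treated culture but passed the threshold only with the block. Hoxa6 was at 6.52, 5.64 and 5.64 CPM in CTL and at 9.94, 8.66 and 7.08 CPM in TGF-β1 cultures (log2 fold change 0.53 ± 0.15, adjusted p = 0.0746, with the block 0.00559). Hoxa2, a gene of hindbrain and branchial arch patterning with 50 to 90 reads, was at 1.98, 1.85 and 1.72 CPM in CTL and at 2.88, 2.39 and 2.31 CPM in TGF-β1 cultures (log2 fold change 0.45 ± 0.16, adjusted p = 0.124, with the block 0.0485). Hoxa11 passed in neither fit for TGF-β1 (log2 fold change 0.25 ± 0.23, adjusted p = 0.532).

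**Figure D3:**
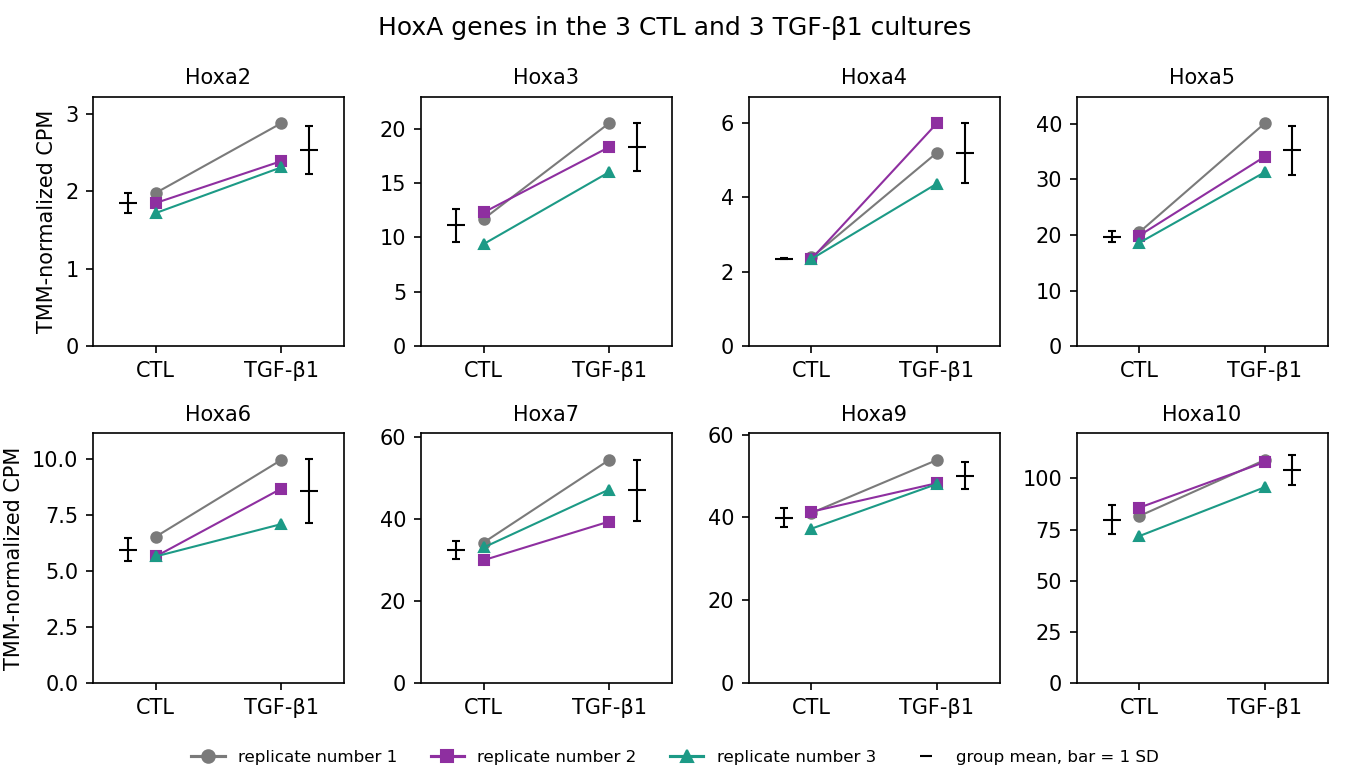
TMM-normalized CPM of the 8 HoxA genes past the threshold with the replicate block, in the CTL and TGF-β1 cultures, with axes from 0. Lines join cultures of the same replicate number and black bars give the group mean ± 1 SD. All 3 lines rise in each panel, for Hoxa4 from 2.34 to 2.38 CPM up to 4.36 to 5.98 CPM.

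The share of HoxA in the summed level per kb moved with these genes. It was 14.7%, 14.7% and 13.8% in CTL replicates 1, 2 and 3 and 19.5%, 19.2% and 18.0% in TGF-β1 replicates 1, 2 and 3. Ratios taken within a library do not depend on the scaling between libraries. The log2 ratio of summed HoxA to summed HoxB, per kb, was -2.10 ± 0.14 in CTL and -1.61 ± 0.13 in TGF-β1 cultures (mean ± SD, n = 3), without overlap. Between paralogs, the log2 ratio of Hoxa5 to Hoxb5 per kb was -0.23, -0.01 and -0.22 in CTL and 0.87, 1.06 and 0.73 in TGF-β1 cultures, from about level to above it. For Hoxa4 against Hoxd4 it was -0.20, -0.41 and 0.02 in CTL and 1.26, 1.73 and 1.64 in TGF-β1 cultures, again without overlap, although both genes share exon bases with others. Hoxa7 stayed under Hoxb7, at -2.10 ± 0.09 and -1.30 ± 0.13. The ratio of Hoxa9 to Hoxb9 overlapped between the groups, at -4.11 ± 0.11 and -4.01 ± 0.06.

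The HoxB genes did not pass the test without the block. Hoxb9 was at 340, 301 and 312 CPM in CTL and at 414, 344 and 358 CPM in TGF-β1 cultures (log2 fold change 0.23 ± 0.09, adjusted p = 0.155, with the block 0.00662). It was the only HoxB gene higher with the block, and its treated cultures were above all controls. Hoxb7, the gene whose promoter marks the ureteric lineage, was at 75.9, 66.1 and 81.5 CPM in CTL and at 64.6, 56.0 and 64.1 CPM in TGF-β1 cultures. Its groups did not overlap (log2 fold change -0.28 ± 0.10, adjusted p = 0.12, with the block 0.00301).

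Hoxb3 was at 31.3, 27.1 and 27.4 CPM in CTL and at 26.8, 20.9 and 25.7 CPM in TGF-β1 cultures (log2 fold change -0.22 ± 0.11, adjusted p = 0.259, with the block 0.0345). Hoxb5 was at 35.7, 29.7 and 32.0 CPM in CTL and at 32.5, 24.3 and 28.0 CPM in TGF-β1 cultures, and the groups overlapped (log2 fold change -0.20 ± 0.12, adjusted p = 0.342, with the block 0.0247). In both genes each pair differed in the same direction, with replicate 2 showing the largest difference. The remaining HoxB genes, Hoxb2, Hoxb4, Hoxb6 and Hoxb8, had log2 fold changes of -0.09 to 0.09 and passed in neither fit.

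In HoxD, Hoxd4, a cervical patterning gene, was at 5.06, 5.73 and 4.27 CPM in CTL and at 4.01, 3.33 and 2.58 CPM in TGF-β1 cultures. All treated cultures were under all controls (log2 fold change -0.60 ± 0.20, adjusted p = 0.11, with the block 0.00972). It shares 52.3% of its exon bases with Hoxd3 and 2 other transcripts, so reads on these bases could have been left out by the counting. Hoxd8 was at 54.7, 51.6 and 61.4 CPM in CTL and at 47.2, 41.3 and 54.9 CPM in TGF-β1 cultures, with overlap (log2 fold change -0.23 ± 0.12, adjusted p = 0.27, with the block 0.00948).

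Neither Hoxd9 nor Hoxd10, which are abundant, passed in any fit for TGF-β1. Hoxd9 was at 32.3, 35.8 and 37.9 CPM in CTL and at 34.6, 32.6 and 38.6 CPM in TGF-β1 cultures, and Hoxd10 at 33.0, 40.8 and 32.0 CPM and at 33.8, 38.4 and 39.9 CPM. Their log2 fold changes were -0.00 ± 0.09 and 0.08 ± 0.11. Hoxd3, with 16 to 36 reads, had a log2 fold change of -0.57 ± 0.29 (adjusted p = 0.249), and Hoxd11 one of 0.18 ± 0.26 (adjusted p = 0.711).

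As the RNA came from whole cultures, fewer cells of a type and less RNA per cell cannot be told apart. Proximal tubule markers summed to 79.6 to 96.2 CPM in CTL and to 34.3 to 48.4 CPM in TGF-β1 cultures, with 2 of the 4 tested markers lower, Lrp2 and Aqp1. Of the 4 epithelial markers Cdh16 fell (log2 fold change -1.50, adjusted p = 0.00922), and with the block 3 were lower. The summed list overlapped between the groups, at 558 to 1480 CPM in CTL and 406 to 1183 CPM in TGF-β1 cultures. Podocyte markers summed to 420 to 590 CPM in CTL and 317 to 372 CPM in TGF-β1 cultures without overlap. This came from Synpo and Podxl, which both passed with the block only, while the defining Nphs1 had at most 6 counts. The summed fibroblast and pericyte list overlapped between the groups, at 835 to 2211 and 758 to 2317 CPM. None of its 7 tested markers passed without the block. With the block Col1a1 was higher (log2 fold change 0.36), and 3 were lower, Foxd1 (-1.93), Pdgfrb (-0.91) and Dcn (-1.10). These fold changes are from the fit without the block. With the block, 15.1% of all genes tested were called higher and 19.1% lower. Summed endothelial markers were at 0.847 to 2.48 CPM and leukocyte markers at 2.44 to 5.73 CPM over the 6 cultures. The part of these cell types in the HoxA result was not tested.

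Regulatory sequence is shown for 2 of the HoxA genes that rose and for Hoxd4, which was lower with the block. They are examples, chosen with their motif counts known, and are not typical of risers and fallers. Promoters came from RefSeq (GRCm38.p6), which covers 250 bases before to 50 after a start, and 22 of the 39 members had an entry. Capitals mark CAGAC and GGCGC on either strand, letters bound by Smad proteins, the transcription factors that TGF-β1 receptors activate. The Hoxa5 window is chr6:52204538-52204837 on the minus strand, the Hoxa10 window chr6:52240805-52241104 on the minus strand and the Hoxd4 window chr2:74721728-74722027 on the plus strand.
Hoxa5: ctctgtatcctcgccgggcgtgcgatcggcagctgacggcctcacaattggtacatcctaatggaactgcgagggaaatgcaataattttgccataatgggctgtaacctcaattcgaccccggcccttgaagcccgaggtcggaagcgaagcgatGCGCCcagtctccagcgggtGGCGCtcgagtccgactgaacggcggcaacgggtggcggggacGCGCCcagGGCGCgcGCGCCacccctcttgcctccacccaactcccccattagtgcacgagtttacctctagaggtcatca
Hoxa10: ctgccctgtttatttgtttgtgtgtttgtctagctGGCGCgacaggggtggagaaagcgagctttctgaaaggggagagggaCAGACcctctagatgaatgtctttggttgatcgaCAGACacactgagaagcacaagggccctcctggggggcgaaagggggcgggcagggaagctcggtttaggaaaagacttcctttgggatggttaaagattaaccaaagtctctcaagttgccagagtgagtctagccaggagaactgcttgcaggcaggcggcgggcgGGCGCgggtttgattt
Hoxd4: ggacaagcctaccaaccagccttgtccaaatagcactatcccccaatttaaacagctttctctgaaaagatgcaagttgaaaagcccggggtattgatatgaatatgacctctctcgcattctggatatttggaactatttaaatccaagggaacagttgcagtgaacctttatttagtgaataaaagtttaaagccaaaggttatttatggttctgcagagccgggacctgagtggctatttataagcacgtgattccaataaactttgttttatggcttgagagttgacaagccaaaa
The Hoxa5 window holds 5 GGCGC and 0 CAGAC. That of Hoxa10, at the 5′ end of the annotated gene, holds 2 of each, its other listed window 4 GGCGC and 0 CAGAC, and that of Hoxd4 holds none. Both strands were searched, so a GGCGCC counts on each. GC content was 61.7% in Hoxa5, 54.3% in Hoxa10 and 39.7% in Hoxd4. Other genes that rose held few of these letters, with 1 CAGAC and 0 GGCGC for Hoxa3 and for Hoxa7, and 0 CAGAC and 1 GGCGC for Hoxa9. Hoxa4, which rose most, had no entry, nor did Hoxb3, Hoxb5 and Hoxb7, which were lower with the block. None of the 5 motifs searched was in the windows of Hoxd4 and Hoxd8, the only genes lower with the block that had an entry. The window of Hoxa11, which passed in neither fit, also held none. Hoxd1 and Hoxd13, which were not expressed at a testable level, held 7 GGCGC each. Over the 24 windows of Hox members, 62.5% held GGCGC and 37.5% CAGAC, against 36.9% and 49.6% of the 32851 promoters in the table. The RBPJ letters GTGGGAA, read by the Notch effector, were in 4.17% of member windows and 6.38% of all. The Hox-Pbx letters TGATNNAT were in 16.7% and 8.85%, and the homeodomain letters TAATTA in 8.33% and 5.29%. The median GC content was 57.6% in member windows and 52.7% in all.

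HoxC genes did not pass for TGF-β1 without the block and differed most by replicate number. A second test asked whether members differ between same-numbered sets of cultures, with treatment in the model. It called 16 of the 32 members, where 18.1% of all genes tested were called (edgeR F test, adjusted p threshold 0.05). Its p-values cover any difference among the 3 numbers and do not single out replicate 2. 6 of the 8 tested HoxC genes, 5 of 8 in HoxB, 3 of 10 in HoxA and 2 of 6 in HoxD were called. Without both replicate 2 cultures 1 member, Hoxa10, was called, where 4.82% of all genes tested were. Nearly all of this count thus rests on them, while calls fell over all genes too. The count was 5 when CTL replicate 1 was left out (11.2% of all genes) and 8 when TGF-β1 replicate 1 was left out (13.4%). It was 6 by DESeq2 (13.6%). Hoxc5, Hoxc6, Hoxc8, Hoxc10 and Hoxd11 were called with either culture left out and by DESeq2.

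All 8 tested HoxC genes were higher in both replicate 2 cultures than in each of the other 4, by 0.37 to 1.43 on the log2 scale. Over the whole family 11 members were higher in this sense and 3 lower, where 11.8% of all genes tested were higher and 12.3% lower. Hoxc8, a thoracic patterning gene, differed most. It was at 10.1, 24.4 and 7.95 CPM in CTL replicates 1, 2 and 3 and at 9.17, 23.9 and 8.77 CPM in TGF-β1 replicates 1, 2 and 3. Replicate 2 was 2.69-fold above the others in both groups alike (adjusted p for the number = 6.45e-05).

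Hoxc6, at 23.5, 40.7 and 21.1 CPM in CTL and 26.2, 47.5 and 23.7 CPM in TGF-β1 cultures, was 1.87-fold higher in replicate 2 (adjusted p for the number = 8.03e-05). Hoxc10, a lumbar motor neuron gene, was at 41.1, 71.1 and 43.5 CPM in CTL and at 48.3, 81.6 and 49.5 CPM in TGF-β1 cultures. It was 1.68-fold higher in replicate 2 (adjusted p for the number = 9.38e-05). For these genes the pairs rose with TGF-β1 by 0.15 to 0.22 and by 0.19 to 0.23 on the log2 scale. Each passed with the block for TGF-β1 (Hoxc6 adjusted p = 0.0283, Hoxc10 adjusted p = 0.0092) and not without it (Hoxc6 adjusted p = 0.777, Hoxc10 adjusted p = 0.701).

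Hoxc5 was at 3.05, 5.13 and 2.72 CPM in CTL and at 4.10, 7.45 and 2.90 CPM in TGF-β1 cultures (adjusted p for the number = 0.0035). Hoxc4 was at 4.45, 7.07 and 5.13 CPM in CTL and at 4.84, 7.32 and 4.47 CPM in TGF-β1 cultures (adjusted p = 0.0182). Hoxc9 was at 16.7, 21.1 and 18.3 CPM in CTL and at 19.3, 25.6 and 17.9 CPM in TGF-β1 cultures (adjusted p = 0.035). In these 3 genes replicate 2 was the highest culture of each group. For TGF-β1, the 6 HoxC genes other than Hoxc6 and Hoxc10 had log2 fold changes of -0.02 to 0.40 and passed in neither fit. Hoxc11 and Hoxc13 were 1.39-fold and 1.75-fold higher in replicate 2 and did not pass (adjusted p for the number = 0.0945 and 0.112).

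Every tested HoxB gene had the opposite sign, from -0.33 to -0.14 on the log2 scale. Hoxb8 was at 125, 107 and 120 CPM in CTL and at 124, 93.7 and 114 CPM in TGF-β1 cultures (adjusted p = 0.0188). Hoxb2 was at 18.5, 15.9 and 18.9 CPM in CTL and at 19.1, 14.3 and 19.1 CPM in TGF-β1 cultures (adjusted p = 0.0479). Hoxb6 was at 97.9, 83.9 and 94.9 CPM in CTL and at 101, 77.5 and 83.1 CPM in TGF-β1 cultures (adjusted p = 0.0366). The replicate 2 culture was the lowest of its group in each of these, although for Hoxb6 the highest of them, 83.9, was above the lowest of the rest, 83.1. Hoxb5 and Hoxb7, given above, also passed (adjusted p = 0.027 and 0.0361).

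The HoxA and HoxD members called by number did not share a direction. Hoxa11 was at 7.96, 9.19 and 6.88 CPM in CTL and at 8.85, 12.7 and 7.08 CPM in TGF-β1 cultures (adjusted p = 0.0257). Hoxd11 was at 6.98, 8.44 and 5.06 CPM in CTL and at 7.63, 9.91 and 5.66 CPM in TGF-β1 cultures (adjusted p = 0.00584). These paralog 11 genes were highest in replicate 2 of each group and lowest in replicate 3. Hoxd8 and Hoxa7 were lowest in replicate 2 of each group, at log2 differences of -0.23 and -0.27. The F test over the 3 numbers gave adjusted p = 0.0188 and 0.0432. For Hoxd8 replicate 3 was the highest of each group. Its call was lost without both replicate 2 cultures and also without both replicate 3 cultures. For Hoxa10 (adjusted p = 0.0455) replicate 3 was the lowest culture of each group. Its call stayed without both replicate 2 cultures (adjusted p = 0.0477) and was lost without both replicate 3 cultures (adjusted p = 0.803). The other 6 HoxA genes higher in TGF-β1 cultures with the block, Hoxa2, Hoxa3, Hoxa4, Hoxa5, Hoxa6 and Hoxa9, were not called by number, at log2 differences of -0.06 to 0.20.

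Within a library, the log2 ratio of Hoxc8 to Hoxb8 per kb was -2.25 and -2.07 in the replicate 2 cultures and -4.02 to -3.74 in the other 4. Summed HoxC held 15.9% and 17.2% of the Hox level per kb in replicate 2, and 9.29% to 9.99% in the other 4 cultures. HoxB held 56.6% and 53.0% there, with 59.6% to 64.5% elsewhere. Beside this, all 7 tested fibroblast and pericyte markers were called by number. In 5 of them replicate 2 was above the others, and in 2, Pdgfra and Thy1, it was below. Pdgfra was level in CTL replicates 1 and 2, at 0.91 and 0.90 CPM. Of the 4 epithelial markers 3 were called by number, each with replicate 2 below. Of all 15862 genes tested, 1436 were called with replicate 2 above and 1437 with it below. Collecting duct and ureteric markers summed to 209 to 294 CPM in replicate 2 against 575 to 947 CPM, nearly all from Krt8. Aqp2, a defining collecting duct gene, had at most 5 reads in any culture. The part of cell composition, or of the sex of the donor, in the HoxC difference was not tested.

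**Figure D4:**
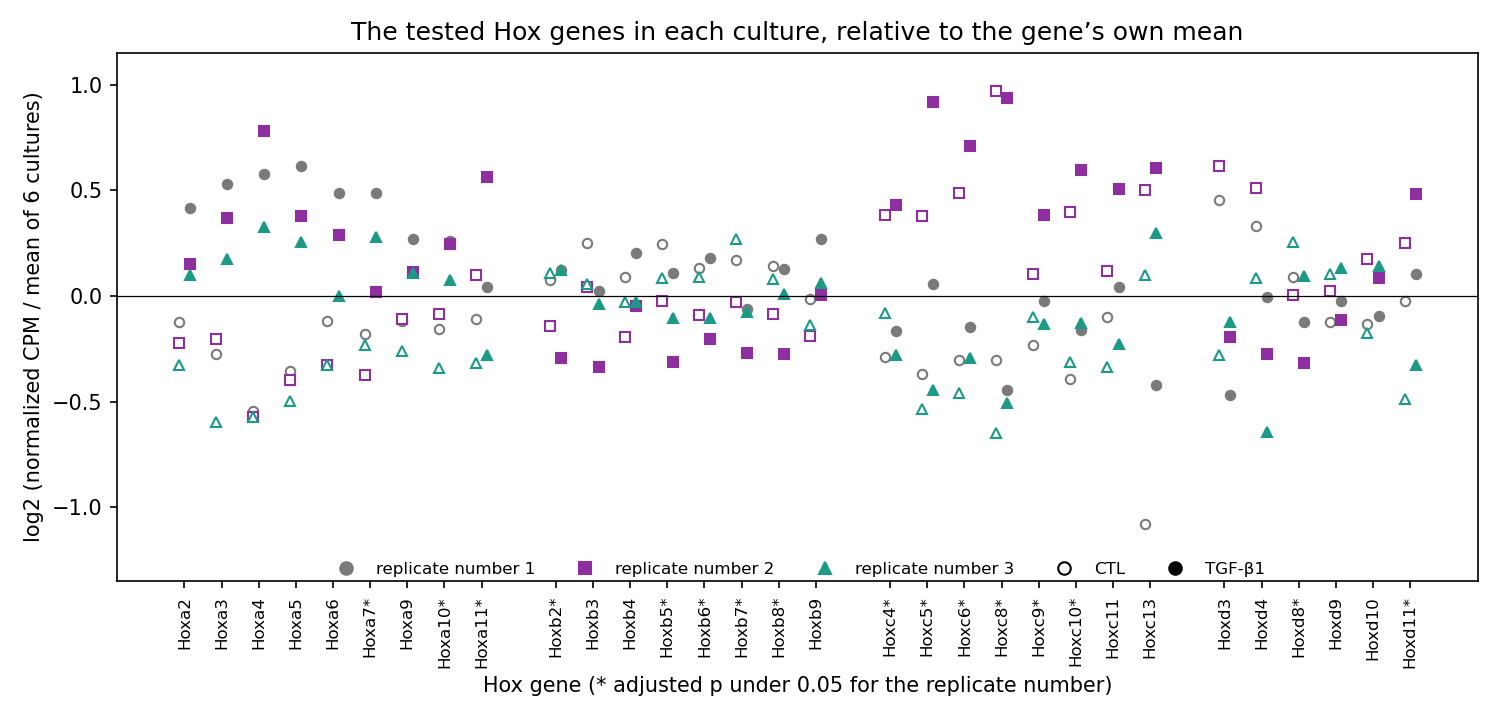
Log2 of TMM-normalized CPM over the gene's own mean of 6 cultures, for the tested Hox genes. Colour and shape give the replicate number, open symbols CTL and filled symbols TGF-β1, and asterisks mark an adjusted p under 0.05 for the number. In all 8 HoxC genes the purple squares of replicate 2 are on top, while in HoxA the filled symbols lie above the open ones from Hoxa2 to Hoxa10.

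Cofactors and regulators of Hox genes were read from lists of 65 genes, of which 57 were tested. Without the block 2 rose and 4 fell, where 5.00% and 6.69% of all genes tested did, and with it 6 rose and 14 fell, where 15.1% and 19.1% did. Apart from the falls with the block, these counts are no higher than, or near, those shares, so the genes named below are single values and say nothing of their lists. The median log2 fold change of the 57 was -0.01 in both fits. Of 11 TALE cofactors, Pknox2 rose (12.8 ± 5.49 CPM in CTL and 43.5 ± 20.0 CPM in TGF-β1 cultures, mean ± SD, n = 3, log2 fold change 1.77 ± 0.42, adjusted p = 0.0487) and Meis3 fell (log2 fold change -0.30 ± 0.06, adjusted p = 0.0324). Without the block, the Pknox2 call was lost under both other count filters. Of the fits that left out a single culture, it was kept only without CTL replicate 2. In these fits the Meis3 call was kept only without TGF-β1 replicate 2. Meis1, a principal Hox partner, did not pass in either fit, at 8.12 ± 3.46 and 7.74 ± 2.78 CPM (log2 fold change -0.07 ± 0.37).

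Of the 17 Polycomb genes, whose complexes keep Hox genes silent, Cbx7 and Cbx6 fell. Cbx7 went from 19.3 ± 3.70 to 9.66 ± 2.78 CPM (log2 fold change -1.0 ± 0.24, adjusted p = 0.049) and Cbx6 from 223 ± 13.6 to 173 ± 12.0 CPM (-0.36 ± 0.07, adjusted p = 0.0296). Without the block, the Cbx7 call was lost under both other count filters. It was also lost whenever a single culture was left out (edgeR adjusted p = 0.0572 to 0.162). In these fits the Cbx6 call was kept only without CTL replicate 3 or without TGF-β1 replicate 2. The catalytic subunit Ezh2 was at 32.2 ± 2.90 and 36.4 ± 4.44 CPM and did not pass (adjusted p = 0.355). Among 8 trithorax and H3K27 demethylase genes, Kdm6b, a demethylase that opposes Polycomb, rose from 128 ± 10.3 to 168 ± 14.6 CPM (log2 fold change 0.39 ± 0.09, adjusted p = 0.0375). With a single culture left out, this call was kept only without CTL replicate 2 or without TGF-β1 replicate 3. It was also lost with library size alone (edgeR adjusted p = 0.0503). Kmt2a, the methyltransferase that maintains Hox expression, did not pass (146 ± 6.80 and 152 ± 8.92 CPM, adjusted p = 0.579).

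In the list of kidney partners and targets, 1 of 11 tested genes passed without the block. Pax8, a nephron lineage factor, fell from 206 ± 12.2 to 121 ± 9.36 CPM (log2 fold change -0.77 ± 0.08, adjusted p = 0.00436). Pax2, which acts with the paralog 11 Hox genes, was at 95.9 ± 10.3 and 81.1 ± 8.30 CPM (adjusted p = 0.193, with the block 0.0125). With the block 1 gene of this list, Ret, was higher, where 15.1% of all genes tested were. Lower were 5, Pax8, Pax2, Gata3, Osr1 and Wt1, where 19.1% of all genes tested were. The 3 Cdx genes, activators of Hox genes in the embryo, were not tested for want of reads.

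Genes flanking the clusters passed in none of 10 cases without the block, where 3 had an unadjusted p under 0.05, as did 4529 of all 15862 genes tested. With it Skap2 rose and Hibadh fell, which both lie beside HoxA, with log2 fold changes of 0.17 and -0.22. The non-coding RNAs of the clusters passed in 0 of 7 cases without the block, none with an unadjusted p under 0.05. With it Hoxaas3 rose (log2 fold change 0.50, adjusted p = 0.0491) and Hoxb5os fell (-0.36, adjusted p = 0.0174). These are annotated as antisense to Hox genes. Without known strand use, it cannot be told whether reads on bases shared with the gene opposite were counted or left out. Hottip had no read in any culture.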

How the data were processed

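Single-end RNA sequencing of 3 CTL and 3 TGF-β1 cultures was analysed from the read counts per gene that the authors deposited for each culture. Per the labels and the methods of the study, reads from poly(A) libraries were trimmed with Trim Galore, aligned to GRCm38 with STAR 2.4.1d and counted with HTSeq 0.6.1. The deposited counts are whole reads with no normalization. The rows that name no gene (no feature, ambiguous or aligned to several places) held 25.4% to 25.9% of all entries and were left out. Reads on more than 1 gene, which HTSeq leaves out, were 2.33% to 2.43% of uniquely aligned reads, and neither its strand setting nor the annotation release is given in the sources used here. Treatment and replicate number came from the labels.

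46005 of the 46517 gene identifiers matched GENCODE M21, which gave symbols, positions and union exon lengths. Counts were fitted in R 4.3.3 with edgeR 4.0.16 (filterByExpr, TMM, robust glmQLFit, two-sided quasi-likelihood tests) on 15862 genes, with Benjamini-Hochberg adjustment over all of them and a threshold of 0.05. Standard errors were derived from the F statistic. The fits were tested on simulated data. The 28313080 to 34183497 reads on genes per library set the counting error only. Libraries of the same group differed by more than that, with a chi-square per degree of freedom of 9.82 to 68.8 between pairs.

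The replicate numbers were taken to pair the cultures because the deviations from the group means correlated in every same-numbered pair (0.34, 0.684 and 0.572 over 15862 genes) and from -0.617 to 0.215 between the others. Alternatives were RLE scaling, library size alone, DESeq2 1.42.0, 2 other count filters, the replicate block, and leaving out each culture or both cultures of 1 number. The block with both cultures of 1 number left out was added after seeing the data. Figures were drawn with matplotlib 3.10.9.

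The members, gene lists, markers and motifs were chosen with earlier results of these data known. Every member called in a fit for TGF-β1, called for the replicate number or among the 10 highest per kb has its values for each culture in the text. From each gene list the called genes with the largest changes are named, with Meis1, Pax2 and Pax8 in any case. Ezh2, Kmt2a, the kidney list genes named only with the block, and the genes named among flanking and non-coding genes were chosen after their values were seen. Protein sequences were not analysed here, and 1 member and 1 cofactor are counted but not reported singly here or drawn in the figures.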

Additional observations from a re-analysis of the deposited data

How the results depend on the processing

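Direction held for all 16 Hox members called with or without the block in every alternative run, except Hoxc6 and Hoxc10, at -0.19 and -0.09 without TGF-β1 replicate 2 and up to 0.54 and 0.50 without CTL replicate 2. The 6 HoxA calls were kept under RLE scaling and both count filters. With library size alone 3 Hox members were called higher, where the median of all genes shifted by -0.077, and the lists gave 1 higher and 7 lower. Leaving out 1 culture gave 1 to 4 Hox members higher, 0 to 2 list genes higher and 1 to 3 lower. Of all genes tested, 1.83% to 7.81% were then called in either direction. Without both replicate 1 cultures the counts were 0 for Hox members and 0 and 0 for the lists. Without both replicate 3 cultures they were 1, 0 and 1, and without both replicate 2 cultures 1 Hox member, Hoxb7, was lower. Without both cultures of replicate 1, 2 or 3, 0%, 14.9% and 1.78% of all genes tested were called. The lists had 1 gene higher under each count filter.

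With the replicate block 11 Hox members were higher and 5 lower, and 6 list genes were higher and 14 lower. With the block and without both cultures of replicate 1, 2 or 3, the Hox members higher were 6, 9 and 13 and those lower 2, 3 and 6. Of all genes tested, 16.8%, 31.4% and 36.5% were called in these fits. The lists then gave 2, 9 and 11 higher and 6, 13 and 17 lower. Hoxa3, Hoxa4, Hoxa5, Hoxa7, Hoxa9, Hoxa10, Hoxb7 and Hoxd4 passed in 3 of 3 such fits. By replicate number DESeq2 called 6 members, leaving out 1 culture gave 5 to 19, without both replicate 1 cultures 8 were called and without both replicate 2 cultures 1. In the same order, 13.6%, 11.2% to 25.9%, 15.5% and 4.82% of all genes tested were called.

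Changes close to 0 turned sign among genes that passed in neither fit. These were Hoxb8 (0.01 without TGF-β1 replicate 2, -0.18 without TGF-β1 replicate 1), Hoxd10 (-0.03 without both replicate 3 cultures, with or without the block) and Hoxd9 (0.00 by DESeq2 and with no filter, -0.07 to 0.05 without single cultures, 0.06 without replicate 2, also with the block). Meis1 was at 0.34 without CTL replicate 2, at -0.41 without TGF-β1 replicate 2, at 0.07 and 0.08 without TGF-β1 replicates 1 and 3, and at 0.00 without replicate 2, also with the block. The cause of these shifts was not tested. The protein comparison was not run.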
